A study of Mus musculus with 30 samples.

Results

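Phase II conjugation and antioxidant enzymes were followed in mouse olfactory epithelium over 48 h after bilateral bulbectomy, in which surgery removes the olfactory bulb on each side. Members were chosen by gene symbol alone, as probe sets annotated to exactly 1 gene. They comprised the glutathione S-transferases (Gsta, Gstm, Gstp, Gstt, Gsto, Gstz and the microsomal Mgst), the UDP-glucuronosyltransferases (Ugt), the sulfotransferases (Sult), the peroxiredoxins (Prdx), the glutathione peroxidases (Gpx), the superoxide dismutases (Sod), the thioredoxin family (Txn), Cat, Nqo1, Hmox1, Hmox2, Gclc, Gclm, Gsr and Srxn1. This rule gave 80 probe sets for 62 genes among 12422 probe sets other than array controls. Of these, 60 probe sets for 49 genes passed the filter on low signals, which asked for at least 3 arrays above the pooled median signal of 572, and entered the tests with 6968 probe sets in all.

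The series used mice 6 weeks of age, labelled either as wild type or as SR-A mutant, where SR-A is a scavenger receptor of macrophages and Msr1 its gene. Gene expression was measured at 0, 2, 8, 16 and 48 h on Affymetrix arrays, with 3 arrays for each of the 10 combinations of label and time and 30 arrays in all. All groups share the microdissected tissue and the age, and no other allele or agent is named. The sources used here do not give the form of the mutation, whether the 0 h mice had been operated on, or whether each array is a separate mouse, so that p-values measure the spread between arrays, which may be technical.

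Glutathione S-transferases join glutathione to reactive compounds, while glucuronosyltransferases and sulfotransferases attach a sugar acid or a sulfate group, which makes the products soluble and easier to export. Catalase, the peroxidases, the superoxide dismutases and the thioredoxin system remove reactive oxygen species and keep protein thiols reduced. Many of these genes are targets of the transcription factor Nrf2, which pairs with small Maf proteins at antioxidant response elements, and olfactory epithelium, exposed to inhaled chemicals, is known as a rich site of such enzymes, above all in its supporting (sustentacular) cells.

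Msr1 did not check the labels. Its brighter probe set gave signals of 83.1 to 173.8 under the wild-type label and 451.2 to 548.5 in the mutant-labelled arrays at 0 h, higher and not lower with the mutant label, so groups are named below by their label. The 3 mutant-labelled arrays at 2 h stood apart in the Gapdh control, where the log2 signal of the 3' probe set minus that of the 5' probe set was 5.59, 0.15 and 1.27, against -0.31 to -0.13 in the other 27 arrays. They were left out of the fits below except in their own comparison. The tissue's defining neuronal gene Omp gave 27106 to 31605 and the supporting-cell keratin Krt18 gave 13559 to 14677 under the wild-type label at 0 h, whereas the basal-cell keratin Krt5 gave 33.8 to 51.9, below the floor of 113.7 set before taking logs. In bulk tissue, fewer cells of a type and less RNA per cell cannot be told apart.

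Members changed in both directions after bulbectomy. Heme oxygenase 1 and the brighter sulfiredoxin probe set fell by 48 h under both labels, and were not called lower at 8 h under either. Several glutathione transferases rose, mostly at 16 and 48 h. The glutathione peroxidase Gpx2 was called higher at 16 and 48 h under the wild-type label alone. Differences are log2 differences of group means ± standard error from limma, with 3 arrays per group, and a p is adjusted over all 6968 tested probe sets, with a threshold of 0.05.

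Under the wild-type label, 3 of the 60 tested members were called at 2 h, 1 higher and 2 lower, against 1.89% of all tested probe sets, 1.23% higher and 0.66% lower. None was called at 8 h by limma, against 0.244% of all, 0.201% higher and 0.0431% lower, and 5 members had an unadjusted p under 0.05 there. At 16 h, 12 were called, 9 higher and 3 lower, against 9.59% of all, 4.94% higher and 4.65% lower. At 48 h, 18 were called, 13 higher and 5 lower, against 18.8% of all, 9.8% higher and 9.04% lower. The counts thus lay above the background share at each of these times but 8 h, and 10 probe sets were called at both 16 and 48 h, each in the same direction. Both comparisons share the 0 h arrays, and this overlap was not counted over all tested probe sets. It therefore shows nothing particular to the members. The median difference over the 60 members was 0.13 at 16 h and -0.03 at 48 h, against -0.01 and -0.02 over all tested probe sets.

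In the mutant-labelled arrays, 3 members were called at 8 h, all higher, against 2.54% of all tested probe sets, 1.71% higher and 0.832% lower. At 16 h, 5 were called, all higher, against 5.18% of all, 2.64% higher and 2.54% lower, and at 48 h 10 were called, 8 higher and 2 lower, against 13.2% of all, 6.46% higher and 6.79% lower. The median member differences were -0.02, 0.05 and 0.00, against 0.00, 0.01 and 0.02 over all probe sets. At 48 h, 8 probe sets were called under both labels, all in the same direction, for Gsta4, Gstm5 (3 probe sets), Gstt2, Hmox1, Mgst2 and Srxn1, which is 8 of the 18 called under the wild-type label and 8 of the 10 under the mutant label. Over all tested probe sets 400 were called under both labels, 380 of them in the same direction, which is 30.5% of those called under the wild-type label and 43.3% of those called under the mutant label.

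**Figure D1:**
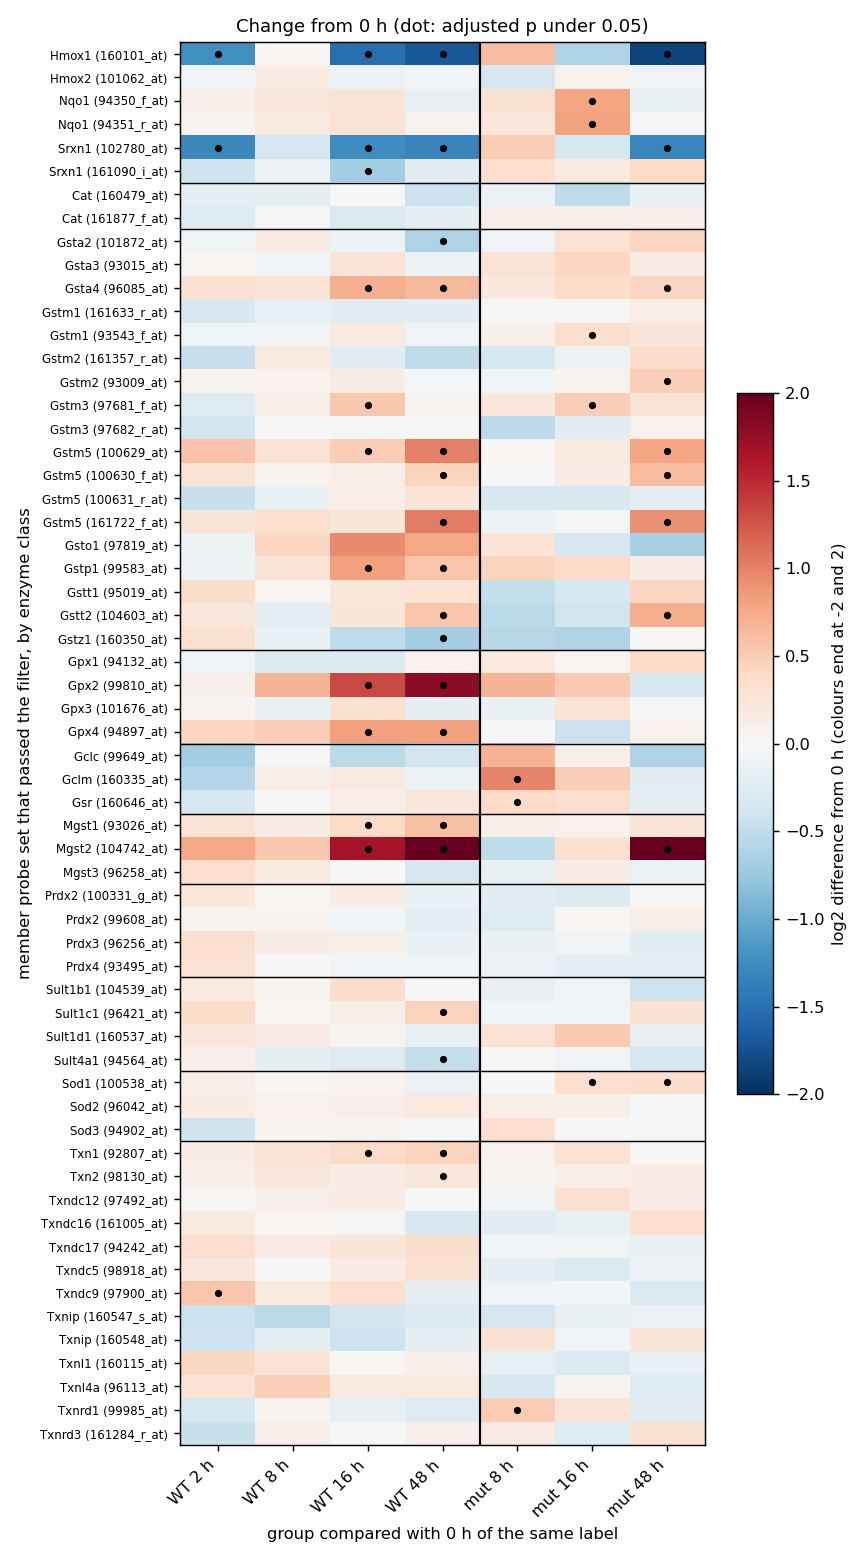
Each line is a member probe set that passed the filter, ordered by enzyme class and labelled with its gene, and each column is a label (WT or mut) and time compared with 0 h of the same label, with mutant-labelled 2 h left out. Colour gives the log2 difference of 3 against 3 arrays, with the scale ending at -2 and 2, and a dot marks an adjusted p under 0.05: the deepest blue cells of these columns are Hmox1 and Srxn1, and the deepest red ones are Mgst2 and Gpx2.

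Heme oxygenase 1 (Hmox1) breaks down heme to biliverdin, iron and carbon monoxide and is a classical stress-inducible Nrf2 target. Its signals under the wild-type label were 26036, 18901 and 25054 at 0 h, 8834, 8934 and 12327 at 2 h, 27311, 20946 and 23058 at 8 h, 8427, 10588 and 5954 at 16 h, and 6036, 4774 and 12465 at 48 h. All 9 arrays at 2, 16 and 48 h lay below every array at 0 and 8 h. Hmox1 fell by 1.22 ± 0.26 at 2 h (adjusted p = 0.0258), fell by 1.51 ± 0.26 at 16 h (adjusted p = 0.00175) and fell by 1.70 ± 0.26 at 48 h (adjusted p = 0.000104), whereas the difference at 8 h was 0.03 ± 0.26 (adjusted p = 0.985). The mutant-labelled signals were 17560, 15344 and 16025 at 0 h, 22439, 27650 and 25017 at 8 h, 9816, 11881 and 10311 at 16 h, and 3886, 3952 and 5918 at 48 h. Among these 4 groups the arrays of 8 h were the highest and those of 48 h the lowest, without overlap. Hmox1 fell by 1.86 ± 0.26, which is 3.62-fold, at 48 h (adjusted p = 7.45e-05), while the differences of 0.62 ± 0.26 at 8 h and -0.61 ± 0.26 at 16 h did not pass the test (adjusted p = 0.228 and 0.173). The constitutive heme oxygenase Hmox2 differed from 0 h by between -0.11 and 0.15 under the wild-type label and passed no test against 0 h in the 27-array fit under either label.

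Sulfiredoxin (Srxn1), which repairs over-oxidised peroxiredoxins, was likewise high at 0 and 8 h and low at the other times on its brighter probe set. The wild-type-labelled signals were 4885, 4424 and 6306 at 0 h, 1617, 1930 and 2989 at 2 h, 3954, 4351 and 3988 at 8 h, 2702, 2289 and 1654 at 16 h, and 2215, 1720 and 2237 at 48 h. The groups at 2, 16 and 48 h overlapped each other and lay below all arrays of 0 and 8 h. The falls were 1.29 ± 0.23 at 2 h (adjusted p = 0.0115), 1.25 ± 0.23 at 16 h (adjusted p = 0.00291) and then 1.33 ± 0.23 at 48 h (adjusted p = 0.000342). In the mutant-labelled arrays the signals were 4088, 4779 and 4092 at 0 h, 6469, 5547 and 6396 at 8 h, 2802, 3942 and 3708 at 16 h, and 2563, 1324 and 1583 at 48 h, a fall of 1.30 ± 0.23 at 48 h (adjusted p = 0.000782). The 8 h arrays were again the highest, but their difference of 0.51 ± 0.23 did not pass the test. The dimmer Srxn1 probe set fell at 16 h under the wild-type label, by 0.70 ± 0.15 (adjusted p = 0.00759), and its difference of -0.22 at 48 h did not pass. Under the mutant label its differences at 16 and 48 h were positive, opposite in sign to the brighter probe set, and were not called.

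Each of the 3 calls at wild-type-labelled 2 h was lost in some of the fits that left out 1 array. Hmox1 at 2 h lost its call without wild-type-labelled 0 h replicate 1 or 3 (adjusted p = 0.112 and 0.0895) or without 2 h replicate 1 or 2 (0.0788 and 0.104), and Srxn1 without 0 h replicate 3 (0.0786) or 2 h replicate 1 or 2 (0.0552 and 0.0753). Txndc9, a thioredoxin-domain protein that acts with chaperones, was the member called higher at 2 h, by 0.56 (adjusted p = 0.0448), and lost its call without any 1 of the 6 arrays compared, with adjusted p from 0.0512 to 0.199. Without wild-type-labelled 0 h replicate 3, 2 h replicate 1 or 2 h replicate 2, 0 members were called at 2 h, and without 0 h replicate 1, 1 was.

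Srxn1 and the glutathione-synthesis gene Gclm are shown here with the 300 bases around their starts, 250 before and 50 after, because Srxn1 fell beside Hmox1 and Gclm had the largest rise at 8 h, and because each holds the letters of an antioxidant response element. Sequences are RefSeq promoter windows of build GRCm38.p6, 5' to 3' along the gene's strand, with capitals marking matches on either strand to the antioxidant response element core (TGACNNNGC or TGAGNNNGC) or to an AP-1 site (TGANTCA). The Srxn1 window is chr2:152105274-152105573 on the plus strand and the Gclm window chr3:122245307-122245606 on the plus strand.
Srxn1: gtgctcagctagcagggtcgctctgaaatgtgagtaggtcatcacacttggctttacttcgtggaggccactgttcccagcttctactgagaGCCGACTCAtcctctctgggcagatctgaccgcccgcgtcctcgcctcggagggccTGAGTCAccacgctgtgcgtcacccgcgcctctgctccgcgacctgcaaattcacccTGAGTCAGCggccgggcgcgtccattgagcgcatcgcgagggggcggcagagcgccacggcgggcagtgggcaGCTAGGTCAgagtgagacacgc
Gclm: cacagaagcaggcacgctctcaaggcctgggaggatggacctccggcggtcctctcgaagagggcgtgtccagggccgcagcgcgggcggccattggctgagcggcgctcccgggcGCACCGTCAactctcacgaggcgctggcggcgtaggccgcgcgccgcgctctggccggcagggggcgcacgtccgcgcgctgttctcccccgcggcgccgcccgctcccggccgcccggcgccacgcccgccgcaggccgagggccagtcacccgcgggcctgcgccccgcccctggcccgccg
The Srxn1 window held 3 core matches, which began 158 and 45 bases before the start and 29 bases after it, and 2 AP-1 matches, 1 of which overlaps the core match at 45 bases. The Gclm window held 1 core match on the opposite strand, beginning 134 bases before the start. Of 68 windows for 52 member genes, 17 held a core match, or 25%, against 27.8% of all 32851 windows, and 7 held an AP-1 match, or 10.3%, against 7.81%. The core letters were thus about as frequent in member windows as elsewhere.

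Of the 3 tested probe sets of glutathione supply, 2 were called higher at 8 h under the mutant label, against 1.71% of all tested probe sets. Gclm, the modifier subunit of glutamate-cysteine ligase, gave 3845, 3250 and 3741 at 0 h and 6239, 7278 and 7935 at 8 h in the mutant-labelled arrays. Every 8 h array was above every 0 h array, and the rise was 0.98 ± 0.18, or 1.98-fold (adjusted p = 0.0047). Thioredoxin reductase 1 (Txnrd1), which returns thioredoxin to its reduced form, gave 8214, 8458 and 7632 at 0 h and 12218, 11377 and 11113 at 8 h, a rise of 0.51 ± 0.10 (adjusted p = 0.00513) with no overlap. Glutathione reductase (Gsr) rose by 0.39 ± 0.10 from 4546, 4491 and 5026 to 5950, 6390 and 6054 (adjusted p = 0.0306), again without overlap. The Gsr call was lost without mutant-labelled 0 h replicate 1 or 2 (adjusted p = 0.0884 and 0.132) or 8 h replicate 1, 2 or 3 (0.0655, 0.123 and 0.0892). Gclc, the catalytic subunit, gave 9318, 7315 and 9514 at 0 h and 11930, 16096 and 13808 at 8 h, a difference of 0.68 ± 0.21 that did not pass (adjusted p = 0.0887) although the groups did not overlap.

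The same genes differed less from 0 h at 8 h under the wild-type label, and the difference at 8 h alone was not tested between labels. There the 8 h differences were 0.11 ± 0.18 for Gclm, 0.05 ± 0.10 for Txnrd1 and 0.03 ± 0.10 for Gsr, each with an adjusted p of 0.894 or more, and Gclc had an adjusted p of 0.999. The Gclm arrays of 8 h spread widely there, at 6402, 5140 and 3086, around the 0 h arrays of 4794, 3938 and 4270. At 2 h the wild-type-labelled differences were negative for all 4, at -0.58 for Gclm, -0.68 for Gclc, -0.33 for Gsr and -0.35 for Txnrd1, and missed the threshold with adjusted p between 0.0596 and 0.0853.

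Nqo1, a quinone reductase and a widely used readout of Nrf2 activity, was higher at 16 h under the mutant label on both probe sets. The brighter gave 9841, 12360 and 10681 at 0 h and 17477, 21590 and 18578 at 16 h, without overlap, a rise of 0.81 ± 0.19 (adjusted p = 0.0155), and the other rose by 0.80 ± 0.22 (adjusted p = 0.04). In the wild-type-labelled arrays the brighter probe set gave 9363, 13039 and 11791 at 0 h and 15160, 18328 and 9424 at 16 h, which overlap, and neither probe set passed there. The other members higher at 16 h under the mutant label were Gstm3 by 0.48 (adjusted p = 0.0162), Sod1 by 0.33 (adjusted p = 0.0342) and Gstm1 by 0.33 (adjusted p = 0.0497). The Gstm3 call was on its brighter probe set, and the dimmer one had a negative difference and was not called. The calls at 16 h under this label rest on single arrays: 0 members were called without mutant-labelled 0 h replicate 1 or 16 h replicate 2, 1 without 0 h replicate 2, and 2 without 0 h replicate 3 or 16 h replicate 3. The brighter Nqo1 probe set had adjusted p = 0.0623, 0.0587 and 0.0731 without 0 h replicate 1, 0 h replicate 3 and 16 h replicate 2.

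**Figure D2:**
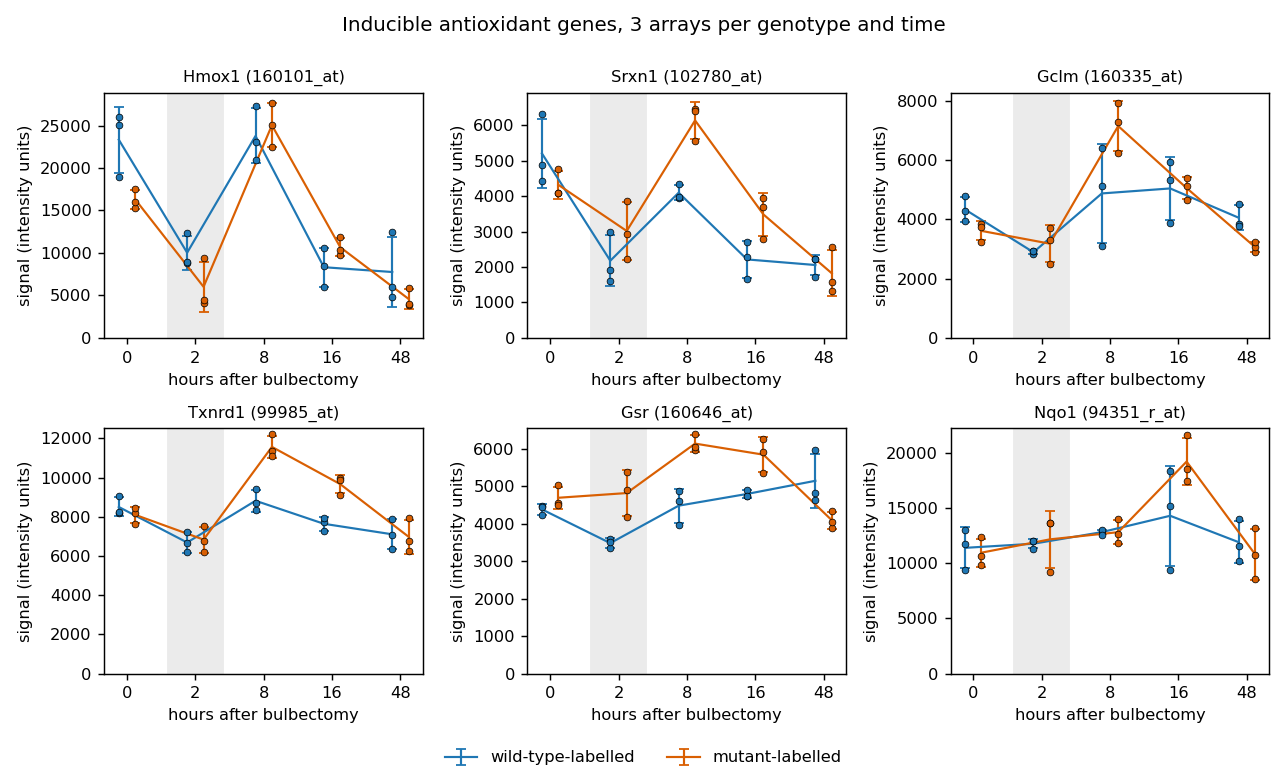
Signals in intensity units on linear axes from 0 are plotted against hours after bulbectomy for Hmox1, Srxn1, Gclm, Txnrd1, Gsr and Nqo1 (1 probe set each). Points are single arrays, lines join group means, bars are SD of 3 arrays, blue is the wild-type and orange the mutant label, and grey marks 2 h, where the mutant-labelled arrays stood apart in the Gapdh control: Hmox1 is high at 0 and 8 h and lowest at 48 h under the mutant label, and Gclm and Txnrd1 peak at 8 h under the mutant label.

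The regulators of the same pathway were read from a list of 11 genes, of which 8 were tested. In the wild-type-labelled arrays 3 fell at 16 h and 2 at 48 h, with 0 higher at either time. Of all tested probe sets, 4.65% were lower at 16 h and 9.04% at 48 h. Maff, a small Maf protein that partners Nrf2, fell by 1.24 ± 0.20 at 16 h (adjusted p = 0.00147) and by 1.77 ± 0.20 at 48 h (adjusted p = 2.13e-06). Mafg, another small Maf, fell by 0.52 at 2 h, 0.42 at 16 h and 0.49 at 48 h, and Mafk by 0.52 at 16 h. In the mutant-labelled arrays 2 rose at 8 h, against 1.71% of all tested probe sets. They were Sqstm1, by 0.58 ± 0.11 (adjusted p = 0.00653), and Ahr, by 0.39 ± 0.10 (adjusted p = 0.0282). Ahr started lower under the mutant label, with a difference between labels of -0.38 ± 0.10 at 0 h (adjusted p = 0.00733). It was the only 1 of the 8 called between labels at 0 h. Sqstm1 binds the Nrf2 inhibitor Keap1, and Ahr is the dioxin receptor, which also drives conjugation genes. Maff fell there at 16 h by 0.74 ± 0.20 (adjusted p = 0.0322) and at 48 h by 1.53 ± 0.20 (adjusted p = 2.82e-05), and Mafg fell at 48 h by 0.73 ± 0.13.

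Among the membrane-bound transferases, Mgst2, a microsomal enzyme that also makes leukotriene C4, had the largest rise of the 60 tested members. The wild-type-labelled signals were 550, 662 and 890 at 0 h, 1253, 1101 and 1180 at 2 h, 796, 1004 and 1245 at 8 h, 1612, 3494 and 1840 at 16 h, and 4044, 5019 and 1719 at 48 h. Every array at 16 and 48 h was above all arrays at 0, 2 and 8 h, and the 16 and 48 h groups overlapped. The rises were 1.67 ± 0.32 at 16 h (adjusted p = 0.00372) and 2.25 ± 0.32, or 4.76-fold, at 48 h (adjusted p = 4.81e-05). Under the mutant label the signals were 933, 1352 and 1618 at 0 h, 787, 840 and 1072 at 8 h, 1638, 1191 and 1979 at 16 h, and 5584, 4800 and 5207 at 48 h, so that the 48 h group stood clear of the others, and the 0 h group overlapped those of 8 and 16 h. That rise was 2.03 ± 0.32, or 4.09-fold (adjusted p = 0.000294). A further Mgst2 probe set lay too low to be tested.

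Mgst1, the most widespread microsomal transferase, gave 11272, 12097 and 10699 at 0 h and 17364, 19077 and 14879 at 48 h under the wild-type label, a rise of 0.59 ± 0.11 (adjusted p = 0.000781) without overlap. Under the mutant label its 48 h arrays, at 13143, 10660 and 15125, overlapped the 0 h arrays of 10420, 11443 and 10350, and it did not pass. At 16 h the wild-type-labelled rise of 0.41 (adjusted p = 0.0254) was lost without 0 h replicate 1 or 3 (adjusted p = 0.0741 and 0.0936) or 16 h replicate 1 or 2 (0.0918 and 0.0821). Mgst3 passed no test against 0 h under either label.

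Of the 18 tested probe sets of the cytosolic transferases, 6 were higher and 2 lower at 48 h under the wild-type label, against 9.8% and 9.04% of all tested probe sets. Under the mutant label 6 were higher and 0 lower by limma, against 6.46% and 6.79% of all. Gstm5, a mu-class enzyme, gave 8295, 11380 and 10333 at 0 h and 20444, 24881 and 15740 at 48 h on 1 of its probe sets under the wild-type label. On the same probe set the mutant-labelled arrays gave 12742, 14618 and 10351 at 0 h and 22521, 22141 and 20264 at 48 h. All 6 arrays at 48 h lay above all 6 at 0 h. The rises were 1.01 ± 0.15 (adjusted p = 8.93e-05) and 0.80 ± 0.15 (adjusted p = 0.00166). Another, much dimmer Gstm5 probe set rose by 1.02 and 0.92 at 48 h. The third, which is the brightest, rose by 0.44 and 0.62, while the fourth differed by 0.27 and -0.19 and passed under neither label. For the third, the wild-type-labelled call was lost without 0 h replicate 1 or 3 (adjusted p = 0.0781 and 0.0807) or 48 h replicate 1 or 2 (0.1033 for both) and with only the groups compared (0.0656), and the mutant-labelled call with only the groups compared (0.0843). The probe sets of the mu-class genes can share sequence with close paralogs, which the arrays may not separate.

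Mgst2, Gstm5 and Gpx2 are shown next with their promoter windows, as the members with the largest rises under the wild-type label. Build, source, direction and capitals are as above. The windows are chr3:51660929-51661228 on the plus strand for Mgst2, chr3:107895604-107895903 on the plus strand for Gstm5 and chr12:76795505-76795804 on the minus strand for Gpx2.
Mgst2: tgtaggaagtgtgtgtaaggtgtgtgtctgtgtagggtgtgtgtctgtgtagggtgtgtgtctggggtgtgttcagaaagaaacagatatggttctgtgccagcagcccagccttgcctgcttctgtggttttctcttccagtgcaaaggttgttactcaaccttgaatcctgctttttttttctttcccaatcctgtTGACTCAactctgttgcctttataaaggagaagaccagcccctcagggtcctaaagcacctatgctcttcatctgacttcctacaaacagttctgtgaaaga
Gstm5: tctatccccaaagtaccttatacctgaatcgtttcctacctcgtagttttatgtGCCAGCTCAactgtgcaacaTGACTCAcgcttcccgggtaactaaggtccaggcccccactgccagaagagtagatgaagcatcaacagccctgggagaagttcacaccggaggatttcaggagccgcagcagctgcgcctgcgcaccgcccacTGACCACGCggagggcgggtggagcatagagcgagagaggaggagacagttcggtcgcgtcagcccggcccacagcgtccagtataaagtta
Gpx2: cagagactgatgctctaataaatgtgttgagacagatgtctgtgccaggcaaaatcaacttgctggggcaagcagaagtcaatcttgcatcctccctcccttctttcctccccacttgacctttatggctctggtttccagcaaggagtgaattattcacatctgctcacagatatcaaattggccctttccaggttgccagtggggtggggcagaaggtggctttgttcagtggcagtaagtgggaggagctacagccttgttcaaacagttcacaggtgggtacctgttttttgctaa
The Mgst2 window held 1 AP-1 match, beginning 52 bases before the start. The Gstm5 window held 2 core matches, beginning 196 and 42 bases before the start, and 1 AP-1 match at 176 bases. The Gpx2 window held 0 matches of either kind, which says only that these letters are not in this window.

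Gpx2, a glutathione peroxidase of epithelial tissues that reduces hydroperoxides, rose under the wild-type label and not under the mutant label at 48 h. The wild-type-labelled signals were 6240, 4132 and 6111 at 0 h, 5751, 7271 and 4615 at 2 h, 11146, 8333 and 6895 at 8 h, 12742, 13994 and 13887 at 16 h, and 21080, 14333 and 21352 at 48 h. The groups of 8, 16 and 48 h did not overlap each other, and that of 48 h was the highest. The rises were 1.32 ± 0.23, or 2.50-fold, at 16 h (adjusted p = 0.00211) and 1.79 ± 0.23, or 3.45-fold, at 48 h (adjusted p = 1.83e-05). In the mutant-labelled arrays the signals were 8905, 7583 and 11938 at 0 h, 11935, 17361 and 15827 at 8 h, 13282, 13248 and 13755 at 16 h, and 5329, 8988 and 8949 at 48 h. The highest groups were those of 8 and 16 h, and the 48 h arrays overlapped those of 0 h, with a difference of -0.30 ± 0.23 (adjusted p = 0.421). With the mutant-labelled 2 h arrays in the fit, the 16 h rise had adjusted p = 0.0668.

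Gpx4, which protects membrane lipids from peroxidation, was called at 16 and 48 h under the wild-type label with a difference of 0.82 each time (adjusted p = 0.0424 and 0.0259). Its 48 h arrays were uneven, at 15404, 14291 and 7724 against 7043, 7944 and 5491 at 0 h, and the groups overlapped. The 48 h call was lost without 0 h replicate 1 or 3 (adjusted p = 0.0519 and 0.118) or 48 h replicate 1 or 2 (0.142 and 0.102), and the 16 h call without 0 h replicate 1, 2 or 3 (0.0941, 0.0549 and 0.163) or 16 h replicate 1 or 2 (0.132 and 0.142). Under the mutant label Gpx4 differed from 0 h by 0.09 at 48 h and did not pass. Gpx1, the ubiquitous cytosolic peroxidase, and Gpx3, the secreted one, passed no test against 0 h in the 27-array fit.

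Gsta4, an alpha-class enzyme with a preference for lipid-peroxidation products such as 4-hydroxynonenal, gave 5047, 4404 and 5328 at 0 h, 8799, 8158 and 7592 at 16 h and 7244, 8575 and 7284 at 48 h under the wild-type label. Both later groups were clear of the 0 h group, with rises of 0.73 ± 0.13 (adjusted p = 0.00262) and 0.64 ± 0.13 (adjusted p = 0.00162). Under the mutant label the 48 h arrays, at 8464, 7242 and 8456, overlapped those of 0 h, at 5800, 4999 and 7534. That difference of 0.42 (adjusted p = 0.042) was lost without mutant-labelled 0 h replicate 1 or 2 (adjusted p = 0.112 and 0.216) or 48 h replicate 1 or 3 (0.0874 and 0.126). Gstp1, the pi-class enzyme, gave 8722, 6835 and 8403 at 0 h and 13530, 14818 and 13618 at 16 h under the wild-type label, a rise of 0.82 ± 0.17 (adjusted p = 0.00647) without overlap. At 48 h Gstp1 was still higher, by 0.55 (adjusted p = 0.0291), a call lost without 0 h replicate 2 or 3 (0.126 and 0.0518) or 48 h replicate 1, 2 or 3 (0.0725, 0.0658 and 0.0618). Gstm3 rose at 16 h under this label by 0.53 ± 0.11 (adjusted p = 0.00647) on its brighter probe set, whose 48 h signals of 8217, 8875 and 10167 overlapped the 0 h arrays of 7980, 9931 and 8241. The dimmer Gstm3 probe set had a negative difference at 16 h under this label and was not called.

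Gstt2, a theta-class enzyme, was higher at 48 h under the mutant label, with 665, 719 and 648 at 0 h and 968, 1172 and 1236 at 48 h, a rise of 0.73 ± 0.16 (adjusted p = 0.0056) without overlap. In the wild-type-labelled arrays it rose from 560, 546 and 570 to 860, 844 and 770, by 0.56 (adjusted p = 0.0193), also without overlap. The wild-type-labelled call was lost without 0 h replicate 2 (adjusted p = 0.0556) or 48 h replicate 1 or 2 (0.0698 and 0.0539). Gstm2 rose under the mutant label alone by the test, from 13321, 13647 and 14641 to 20290, 18615 and 18837, by 0.47 ± 0.10 (adjusted p = 0.00406), and the test of the difference between labels is given below.

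**Figure D3:**
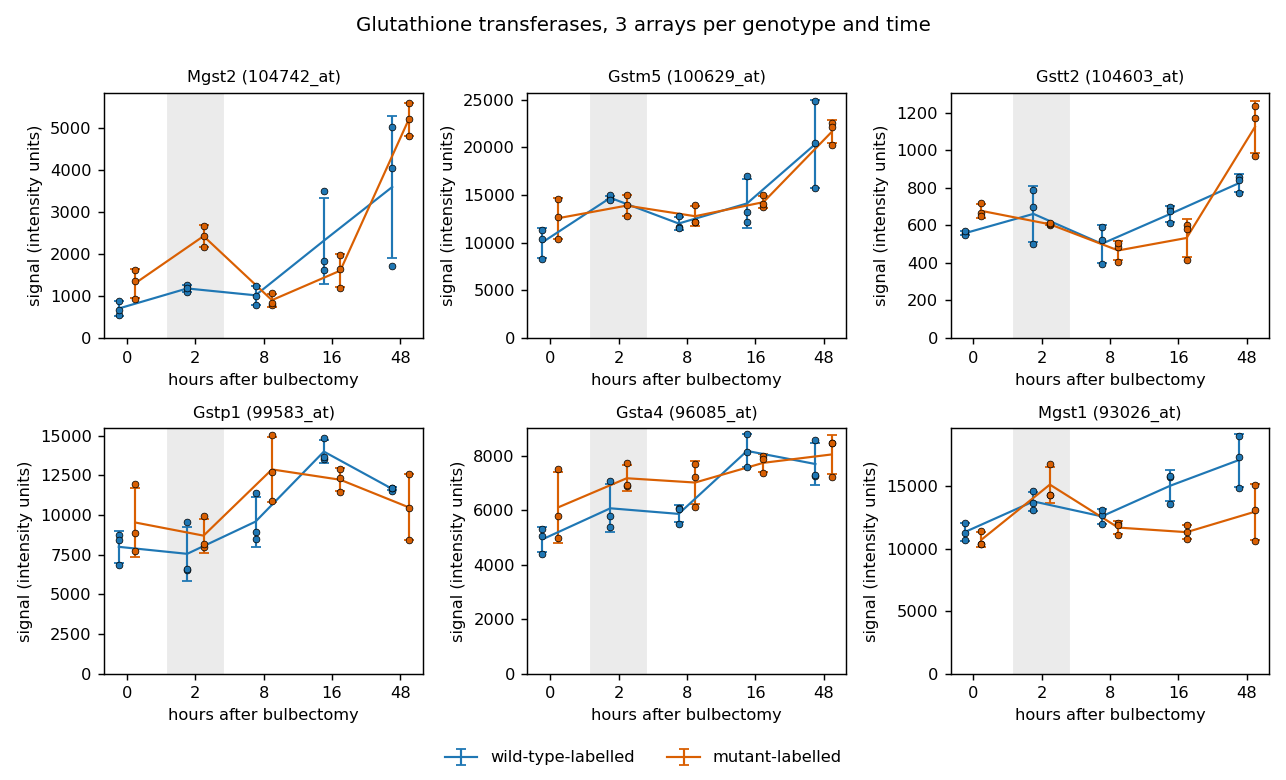
Signals in intensity units on linear axes from 0 are plotted against hours after bulbectomy for Mgst2, Gstm5, Gstt2, Gstp1, Gsta4 and Mgst1 (1 probe set each). Points are single arrays, lines join group means, bars are SD of 3 arrays, blue is the wild-type and orange the mutant label, and grey marks 2 h: the 48 h arrays of Mgst2, Gstm5 and Gstt2 lie above their 0 h arrays under both labels, and Gstp1 is highest at 16 h under the wild-type label.

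The members called lower at 48 h under the wild-type label, beside Hmox1 and Srxn1, were Gstz1, Gsta2 and Sult4a1. Gstz1, the zeta-class enzyme that also serves tyrosine breakdown as maleylacetoacetate isomerase, fell by 0.67 (adjusted p = 0.02), and lost its call without 0 h replicate 3 (adjusted p = 0.0785) or 48 h replicate 1 or 3 (0.102 and 0.0819). Gsta2, an alpha-class enzyme, fell by 0.62 ± 0.16 (adjusted p = 0.0107), from 5262, 5533 and 5540 to 2973, 4568 and 3290, without overlap, and lost its call without 48 h replicate 1, at -0.49 (adjusted p = 0.0772). Sult4a1, a sulfotransferase of nervous tissue, fell by 0.47 ± 0.12 (adjusted p = 0.00988), from 1632, 1474 and 1410 to 1030, 1144 and 1078, without overlap. It was not called when the mutant-labelled 2 h arrays were in the fit (adjusted p = 0.155). Without 48 h replicate 1, 10 members in place of 18 were called at 48 h.

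The other 7 probe sets called higher at 48 h under the wild-type label, of Mgst1, Gstt2, Gstp1, Sult1c1, Txn1, Gstm5 and Txn2, rose by between 0.23 and 0.59. Thioredoxin 1 (Txn1), the cytosolic thiol reductant, gave 15093, 17628 and 18675 at 0 h and 24021, 21534 and 24313 at 48 h in these arrays, a rise of 0.45 ± 0.11 (adjusted p = 0.00527) without overlap. Txnip, the thioredoxin inhibitor, had differences of -0.28 and -0.18 on its probe sets at 48 h and passed no test against 0 h under either label. Sult1c1, a sulfotransferase also listed among sustentacular markers, rose by 0.45 (adjusted p = 0.0476), a call lost without 0 h replicate 1 or 3 (adjusted p = 0.232 and 0.107) or 48 h replicate 1 or 2 (0.143 and 0.203). The 3 Ugt probe sets, of Ugt2b34, Ugt2b5 and Ugt8a, were not tested, since none passed the filter, and of the 10 sulfotransferase probe sets 4 were tested. In all, 20 member probe sets were untested, with highest signals between 13.8 and 708.8.

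Among the superoxide dismutases, cytosolic Sod1 gave 27143, 28566 and 27781 at 0 h and 34671, 34410 and 37814 at 48 h under the mutant label, a rise of 0.36 ± 0.09 (adjusted p = 0.0125) without overlap. It was lost without 48 h replicate 3, at 0.31 (adjusted p = 0.0595). In the wild-type-labelled arrays Sod1 differed by -0.11 ± 0.09 (adjusted p = 0.429). Mitochondrial Sod2 and extracellular Sod3 passed no test against 0 h, with 48 h differences between -0.04 and 0.19. The 2 catalase probe sets passed no test against 0 h in the 27-array fit either.

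Markers of cell types moved at the same times. At 48 h under the wild-type label, 6 of 12 tested macrophage markers were higher and 0 lower, 8 of 10 mature neuron markers were lower and 1 higher, 8 of 13 fibroblast markers were lower and 0 higher, and 2 of 9 sustentacular markers were higher and 0 lower. Under the mutant label the corresponding counts were 5 higher and 0 lower, 4 lower and 0 higher, 6 lower and 0 higher, and 2 higher and 0 lower. Over all tested probe sets, 9.8% were higher and 9.04% lower at 48 h under the wild-type label, and 6.46% and 6.79% under the mutant label. The summed sustentacular signal lay between 80716 and 90178 at 0 h and between 82664 and 108378 at 48 h under the wild-type label, and between 100427 and 103662 and between 120400 and 130566 under the mutant label. Sult1c1, itself a member, is 1 of the 9 sustentacular markers and so is part of their counts and of this sum. The 2 called higher were Krt18 and Sult1c1 under the wild-type label and Cyp1a2 and Cbr2 under the mutant label. The summed fibroblast signal lay between 128963 and 164074 at 0 h and between 56487 and 70045 at 48 h under the wild-type label. No tested marker of these 4 lists was at the floor on average in any group, and their part in the changes of the members was not tested.

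Genes that supply cofactors or do related chemistry were read from 3 further lists. Of 15 tested genes that supply glutathione, NADPH or activated sugars and sulfate, 3 were higher and 0 lower at 48 h under each label. They were Idh1, Idh2 and Taldo1 under the wild-type label and Idh1, Taldo1 and Ugp2 under the mutant label. Over all tested probe sets, 9.8% were higher at 48 h under the wild-type label and 6.46% under the mutant label. Idh1, a cytosolic source of NADPH, rose by 0.65 ± 0.15 (adjusted p = 0.00373) and by 0.45 ± 0.15 (adjusted p = 0.0494). Glutathione synthetase (Gss) rose under the mutant label at 8 h by 0.65 ± 0.16 (adjusted p = 0.037) and at 16 h by 0.64 ± 0.16 (adjusted p = 0.0286), and the pentose-phosphate enzyme Pgd rose there at 16 h by 1.08 ± 0.22 (adjusted p = 0.00676). Slc3a2 fell there at 16 h by 0.48 ± 0.13 (adjusted p = 0.037). Under this label 1 of the 15 was higher and 0 lower at 8 h, against 1.71% and 0.832% of all tested probe sets. At 16 h, 2 were higher and 1 lower, against 2.64% and 2.54%.

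Of 32 other conjugation and redox genes tested, 6 were higher and 0 lower at 48 h under each label, and Msrb1 was among them under both. The share of all tested probe sets that was higher was 9.8% under the wild-type label and 6.46% under the mutant label. Akr1b8, an aldo-keto reductase, rose by 1.57 ± 0.29 at 16 h (adjusted p = 0.0033) and by 1.73 ± 0.29 at 48 h (adjusted p = 0.000325) under the wild-type label. Its 48 h change was lower under the mutant label (difference of changes -1.55 ± 0.42, adjusted p = 0.0368). Glutaredoxin (Glrx), which reduces glutathione-protein disulfides, rose by 0.92 ± 0.20 at 48 h under the wild-type label (adjusted p = 0.00238) and by 0.99 ± 0.20 at 8 h under the mutant label (adjusted p = 0.00811). Of 5 efflux transporters tested, Abcc5, which exports glutathione conjugates and cyclic nucleotides, rose by 0.75 ± 0.09 at 48 h under the mutant label (adjusted p = 7.27e-06).

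The time courses of the 2 labels were set against each other by the moderated F test of the differences in change at 8, 16 and 48 h. It called 8 member probe sets against 5.96% of all tested, and the test at 48 h alone called 4, 3 higher and 1 lower, against 4.18% of all, 1.74% higher and 2.44% lower. By the F test the smallest adjusted p belonged to Gpx2 (0.0012), followed by Gsr (0.00672), Gsta2 (0.00772), Gstm2 (0.0205), Txndc16 (0.0205) and 1 of the Prdx2 probe sets (0.0262). At 48 h the change of Gpx2 was lower under the mutant label (difference of changes -2.09 ± 0.33, adjusted p = 0.000857), from arrays whose 0 h level was the higher and whose 48 h level was the lower under that label. With the mutant-labelled 2 h arrays in the fit the adjusted p for Gpx2 was 0.0634 at 48 h and 0.0913 in the F test.

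Gsta2 moved the other way. Its 48 h change was higher under the mutant label by 1.05 ± 0.23 (adjusted p = 0.014), with 4426, 4774 and 4214 at 0 h and 6643, 5128 and 6366 at 48 h there, beside the fall under the wild-type label given above. The changes of Gstm2 and Sod1 at 48 h were higher under the mutant label by 0.52 ± 0.14 (adjusted p = 0.0424) and 0.47 ± 0.13 (adjusted p = 0.0421). Neither held on leaving out single arrays: 2 members were called at 48 h without wild-type-labelled 0 h replicate 1, 2 or 3, without 48 h replicate 1 or 3, without mutant-labelled 0 h replicate 1 or 3, or without 48 h replicate 3. Gstm2 had adjusted p up to 0.105 and Sod1 up to 0.109, both without wild-type-labelled 48 h replicate 1. Txndc16 and Prdx2 were called by the F test and not at 48 h alone. Txndc16, a thioredoxin-domain protein, gave 4109, 4890 and 4118 at 0 h and 3120, 4091 and 3406 at 48 h under the wild-type label, and 4254, 6150 and 5346 at 0 h and 6661, 6502 and 6400 at 48 h under the mutant label. Its 48 h change was thus negative under the one label and positive under the other, and neither passed on its own. Prdx2, a cytosolic peroxiredoxin, differed little in size, with changes between -0.27 and 0.14 on the probe set with adjusted p = 0.0262, which was lost without wild-type-labelled 16 h replicate 3 (0.0567) or 48 h replicate 3 (0.0606).

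In the F test the count was 5 without wild-type-labelled 16 h replicate 3, 4 without 48 h replicate 1 and 3 without 48 h replicate 3.

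**Figure D4:**
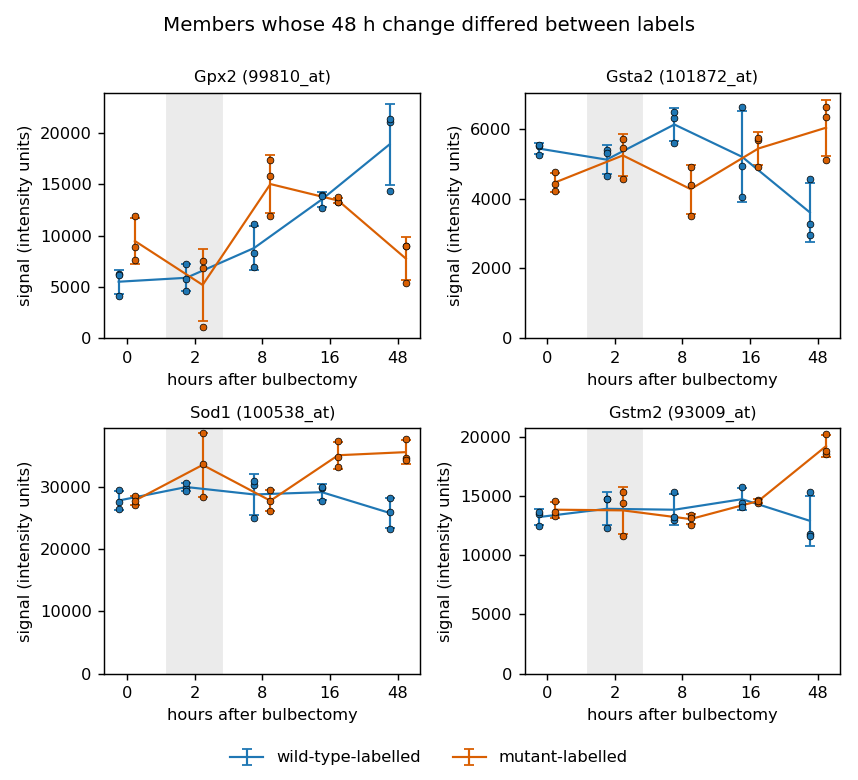
Signals in intensity units on linear axes from 0 are plotted against hours after bulbectomy for the 4 members whose 48 h change differed between labels, Gpx2, Gsta2, Sod1 and Gstm2 (1 probe set each). Points are single arrays, lines join group means, bars are SD of 3 arrays, blue is the wild-type and orange the mutant label, and grey marks 2 h: at 48 h Gpx2 is high under the wild-type and low under the mutant label, and the other 3 are the reverse.

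At 0 h the labels differed in 14 members, 11 higher and 3 lower under the mutant label, against 23.3% of all tested probe sets, 9.82% higher and 13.5% lower. The share of members, 14 of 60, equals that background. The direction rests on labels that Msr1 did not check, and every difference between labels may also carry other differences between the 2 sets of mice. Txnl4a, a thioredoxin-like splicing factor, was higher by 0.72 ± 0.14 (adjusted p = 0.00153), with 2231, 2894 and 2360 under the wild-type and 3885, 4118 and 4272 under the mutant label. Txn1 was higher by 0.48 ± 0.11 (adjusted p = 0.00385) and after quantile normalization by 0.27 (adjusted p = 0.0744). Gpx1 was lower, at 1701, 1571 and 1374 against 2853, 2033 and 2324, a difference of -0.63 ± 0.14 (adjusted p = 0.00335). The dimmer Srxn1 probe set was lower too, at 379, 409 and 351 against 531, 632 and 656 (-0.67 ± 0.15, adjusted p = 0.00421). In each of Txnl4a, Gpx1 and this Srxn1 probe set the 2 groups did not overlap.

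Several of the 0 h differences turned on 1 array. Mgst2 was higher by 0.88 (adjusted p = 0.0494), a call lost without wild-type-labelled replicate 1 or 2 (adjusted p = 0.17 and 0.103) or mutant-labelled replicate 2 or 3 (0.126 and 0.176). Gpx2 was higher by 0.78 (adjusted p = 0.0194), lost without wild-type-labelled replicate 2 (0.0979) or mutant-labelled replicate 3 (0.102). Gstt1, a theta-class enzyme, was higher by 0.48 (adjusted p = 0.0231), lost without wild-type-labelled replicate 2 (0.086) or mutant-labelled replicate 2 or 3 (0.0616 and 0.0785). Txndc9 was higher by 0.46 (adjusted p = 0.0241), lost without wild-type-labelled replicate 1 or 3 (0.102 and 0.0506) or mutant-labelled replicate 2 or 3 (0.0939 and 0.0519). Cat was lower (-0.53, adjusted p = 0.0306), lost without wild-type-labelled replicate 1 or 3 (0.121 and 0.0733) or mutant-labelled replicate 1 or 2 (0.078 and 0.146). After quantile normalization Cat was at -0.45 and not called (adjusted p = 0.057). The other 5 higher probe sets, of Mgst3, Sult1b1, Prdx4, Gstm5 and Prdx3, differed by between 0.32 and 0.45, and of these the Prdx3 call was kept in every alternative run. Sult1b1 was not called without any 1 of the 6 arrays (adjusted p from 0.0611 to 0.102), and Prdx4 not without wild-type-labelled replicate 3 (0.0578) or mutant-labelled replicate 2 (0.0675). Gstm5 was not called without wild-type-labelled replicate 1, 2 or 3 (0.13, 0.0519 and 0.128) or mutant-labelled replicate 1 or 2 (0.0746 and 0.204), and after quantile normalization it was at 0.09 (adjusted p = 0.568). Mgst3 was not called without wild-type-labelled replicate 1 or 3 (0.122 and 0.0537) or mutant-labelled replicate 2 (0.153), and after quantile normalization it was at 0.29 (adjusted p = 0.114). The count of called members was 8 and 9 without wild-type-labelled replicate 1 and 3, and 7 and 9 without mutant-labelled replicate 2 and 3. After quantile normalization it split into 8 higher and 4 lower.

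Averaged over 0, 8, 16 and 48 h, with 12 arrays per label, 24 members differed, 16 higher and 8 lower under the mutant label, against 42.6% of all tested probe sets, 17.9% higher and 24.7% lower. The share of members, 24 of 60, was close to that background. Catalase (Cat), which breaks down hydrogen peroxide in peroxisomes, was lower on its called probe set. The wild-type-labelled arrays ranged from 967 to 1743 with a median of 1403 and the mutant-labelled ones from 681 to 1326 with a median of 932. The ranges overlapped, and the difference averaged over times was -0.57 ± 0.09 (adjusted p = 3.05e-05). At 16 h the labels did not overlap, with 1436, 1652 and 1548 against 834, 681 and 754. The other catalase probe set differed by -0.14 and did not pass. Gpx1 was lower under the mutant label too (-0.35 ± 0.07, adjusted p = 0.000437).

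Mgst3, a microsomal transferase with peroxidase activity, was higher under the mutant label. The wild-type-labelled arrays ranged from 11330 to 19103 and the mutant-labelled ones from 17253 to 27260, a difference of 0.47 ± 0.07 (adjusted p = 1.92e-05), or 0.32 (adjusted p = 0.000448) after quantile normalization. At 48 h the levels were 11911, 13890 and 11330 against 21191, 18206 and 19873, without overlap. Gstz1 was higher by 0.42 ± 0.10 (adjusted p = 0.00189), Txnl4a by 0.38 ± 0.07 (adjusted p = 0.000218), Prdx4, the peroxiredoxin of the endoplasmic reticulum, by 0.31 ± 0.06 (adjusted p = 0.000171) and Txndc16 by 0.30 ± 0.07 (adjusted p = 0.00147). Each kept its direction and call after quantile normalization.

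For the mu-class transferases the direction between labels depended on the probe set and the scaling. The Gstm1 probe sets differed by 0.29 ± 0.05 and -0.28 ± 0.09 (adjusted p = 9.21e-05 and 0.0163), and the Gstm2 probe sets by 0.14 ± 0.05 and -0.56 ± 0.15 (adjusted p = 0.031 and 0.00606). After quantile normalization the positive differences were 0.02 for Gstm1 and 0.04 for Gstm2, and a called Gstm5 probe set went from 0.40 to 0.12, all without a call. The lower Gstm1 probe set went to -0.21 and lost its call as well (adjusted p = 0.0751). Sod1 went from 0.17 ± 0.05 (adjusted p = 0.00452) to -0.03, a change of sign. One further Gstm3 probe set and 1 Nqo1 probe set each differed by -0.29, with adjusted p = 0.0159 and 0.0413. After quantile normalization they were at -0.21 (adjusted p = 0.0864), which is no call, and -0.35 (adjusted p = 0.0173). The Nqo1 call was made in 10 of the 24 fits that left out 1 array. The other, brighter Nqo1 probe set had a positive difference and was not called.

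**Figure D5:**
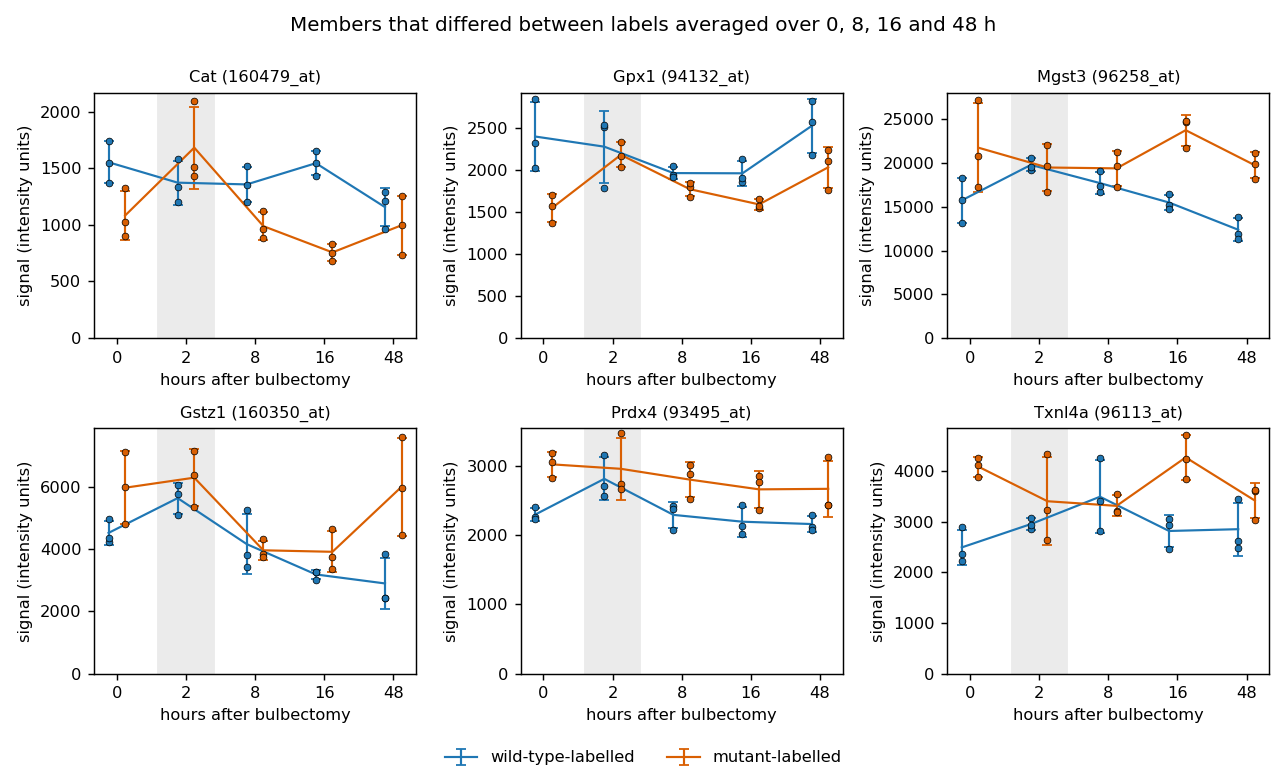
Signals in intensity units on linear axes from 0 are plotted against hours after bulbectomy for 6 members that differed between labels averaged over 0, 8, 16 and 48 h, Cat, Gpx1, Mgst3, Gstz1, Prdx4 and Txnl4a (1 probe set each). Points are single arrays, lines join group means, bars are SD of 3 arrays, blue is the wild-type and orange the mutant label, and grey marks 2 h, which the average leaves out. Averaged over the other times, Cat and Gpx1 are lower and the rest higher under the mutant label, which need not hold at 2 h.

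The mutant-labelled arrays at 2 h were compared with 0 h in the fit of all 30 arrays, as a description beside their Gapdh values. Of the 60 members 8 were called, 5 higher and 3 lower, against 17.7% of all tested probe sets, 7.38% higher and 10.3% lower. Sult4a1 was lower (-2.09 ± 0.22, adjusted p = 8.03e-07), at 261, 706 and 301 against 1768, 1659 and 1470 at 0 h, and Hmox1 was lower at 4111, 4500 and 9442 (-1.54 ± 0.29, adjusted p = 0.000856). Gpx2 gave 1113, 6867 and 7561, where the array with 1113 is the one with the largest Gapdh difference. Without that array Gpx2 had a difference of -0.37 (adjusted p = 0.431) in place of -1.27 (adjusted p = 0.0443). Mgst2, Cat, Gpx1, Mgst1 and Gstm3 were called higher, by 0.93, 0.63, 0.50, 0.49 and 0.33, and Mgst1 was the only one of these 5 to keep its call on leaving out each of the 6 arrays in turn. The other tested probe sets of Cat and Gstm3 had negative differences and were not called. The count was 5 without mutant-labelled 0 h replicate 1, 4 without 0 h replicate 2 and 4 without 2 h replicate 1. The part of RNA quality in these values was not tested.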

How the data were processed

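Olfactory epithelium RNA of 30 mouse samples was measured on 1-colour Affymetrix MG-U74Av2 arrays. Values are MAS5 signal intensities, which the authors deposited on a linear scale, per the submitters' processing notes. No source used here gives the MAS5 version or settings. The table held 12488 probe sets, of which 66 were array controls, and the trimmed mean signal per array was 1500.7 to 1500.9, so arrays had been scaled alike. The number of arrays, 3 per group, limits the precision.

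Of the other probe sets, 10833 were annotated to 1 gene, 396 to several and 1193 to none. Gene IDs of 10817 were matched to the RefSeq table, and 0 symbols were updated. Signals were floored at 113.7, the 25th percentile over all arrays, and taken to log2. Probe sets above the pooled median of 572 in at least 3 arrays were kept, which left 6968. Group means were fitted in limma 3.58.1 (R 4.3.3) on 27 arrays, without the mutant-labelled 2 h group, whose own comparison used all 30. Adjusted p-values are Benjamini-Hochberg over all tested probe sets, with a threshold of 0.05. Tables, sequence matches and plots were made in Python 3.11.15 with numpy 2.4.6, pandas 2.3.3, scipy 1.17.1 and matplotlib 3.10.9. The fits were tested on simulated data.

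Alternatives were quantile normalization, dropping the filter, adding 16 to each signal instead of flooring, a variance trend with robust moderation, the replicate number as a block, a fit of all 30 arrays or of only the groups compared, and leaving out single arrays. No pairing of samples by replicate number was evident, and the labels do not state one. Deviations from group means correlated between -0.35 and 0.35 for the same number, with a median of -0.01 over 108 pairs. For different numbers they correlated between -0.32 and 0.39, with a median of 0.00 over 216 pairs.

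Members, lists and the left-out group were chosen with earlier results of these data known. Named were up to 6 called member probe sets per direction and comparison by size, fixed regulators and antioxidant enzymes, genes whose probe sets differ in sign, and up to 3 genes per further list. Prdx1 and Prdx6, on that fixed list, have no probe set annotated to exactly 1 gene. Levels of different probe sets were not compared.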

Additional observations from a re-analysis of the deposited data

Results flagged for a closer look

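The following members differed between the labels in their change over time, by a direct test of that difference in limma, and are listed for a closer look. Directions rest on labels that Msr1 did not check. In the F test over the changes at 8, 16 and 48 h the adjusted p was 0.0012 for Gpx2, 0.00672 for Gsr, 0.00772 for Gsta2, 0.0205 for Gstm2 and 0.0205 for Txndc16. It was 0.0262 and 0.0455 for the Prdx2 probe sets and 0.0408 for Sod1. In the 48 h change alone, mutant-labelled minus wild-type-labelled, the difference was -2.09 for Gpx2, 1.05 for Gsta2, 0.52 for Gstm2 and 0.47 for Sod1. Gsr stood at 4546, 4491 and 5026 at 0 h, 5950, 6390 and 6054 at 8 h and 3892, 4040 and 4332 at 48 h under the mutant label, against 4466, 4220 and 4450, 4865, 3973 and 4592, and 4636, 4814 and 5971 under the wild-type label. Among these times its mutant-labelled arrays were thus highest at 8 h and lowest at 48 h, whereas its wild-type-labelled arrays at 48 h were above those at 0 h. At 16 h Gsr differed from 0 h by 0.32 under the mutant and 0.13 under the wild-type label. At 48 h it differed by -0.20 and 0.22, and no Gsr change at 16 or 48 h was called on its own.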

How the results depend on the processing

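Every one of the 72 named changes kept its direction under the alternatives run, but calls were lost: 22 with only the groups compared, 10 with no filter, 10 after quantile normalization, 7 with the replicate block, 1 with the pseudocount of 16 and 0 with the variance trend in limma. With all 30 arrays 13 of 64 were lost, and with replicate 2 as the only mutant-labelled 2 h array 6 of 8. Outside them, the averaged difference of Sod1 between labels turned from 0.17 to -0.03 after quantile normalization. The count of called members moved by over 1.5 times in the following cases. Of wild-type-labelled 2 h, it went from 3 to 6 with the variance trend and to 1 with all 30 arrays. Of mutant-labelled 2 h, it went from 8 to 0 when only the groups compared were fitted and to 2 with replicate 2 as the only 2 h array, an alternative chosen after seeing the data. Of mutant-labelled 16 h, it went from 5 to 2 after quantile normalization, 2 with all 30 arrays and 3 with only the groups compared. Of mutant-labelled 48 h, it went from 10 to 6 with only the groups compared. The F test between labels went from 8 to 5 with all 30 arrays, and the 48 h test from 4 to 1 with all 30 arrays and 2 with only the groups compared. The replicate block gave 3 at mutant-labelled 16 h and 2 in the 48 h test, and left the other counts within 1.5 times.

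With single arrays left out, the counts ranged from 0 to 3 (2 h), 0 to 1 (8 h), 8 to 11 (16 h) and 10 to 16 (48 h) under the wild-type label, where the 1 at 8 h came without 8 h replicate 3. They ranged from 4 to 10, 2 to 3, 0 to 4 and 9 to 12 under the mutant label. Between labels they ranged from 7 to 11 at 0 h, 21 to 27 averaged, 3 to 12 in the F test and 2 to 5 at 48 h. Of the named changes 46 were called in every such fit.

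Over all probe sets, quantile normalization moved the share called higher at wild-type-labelled 2 h from 65.2% to 75.8%. Between labels it moved the calls from 684 higher and 940 lower to 687 and 645 at 0 h, and from 1250 and 1720 to 1389 and 1342 averaged, so that the majority of lower calls does not hold under both scalings. For the averaged difference between labels it moved the members from 16 higher and 8 lower to 10 and 7. Signals near the floor of 113.7 limit what the dimmer probe sets show.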

Other observations

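Nnt, which makes NADPH in mitochondria and so feeds glutathione and thioredoxin reduction, differed between labels by -1.33 ± 0.08 averaged over times (adjusted p = 1.28e-10) and by -1.31 ± 0.16 at 0 h (adjusted p = 3.03e-05). It is not a member, and it was taken from the list of cofactor genes. Abcc5, which exports conjugates, rose from 0 to 48 h under the mutant label and was not called at 48 h under the wild-type label. The difference of changes was 0.91 ± 0.12 (adjusted p = 0.000113). Under the wild-type label Abcc5 fell by 0.44 ± 0.09 at 16 h (adjusted p = 0.00365). At 0 h it was lower under the mutant label (-0.32 ± 0.09, adjusted p = 0.0105). Among the other efflux genes, Slco3a1 fell by 0.71 at 16 h and 0.70 at 48 h under the wild-type label.

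Markers of further cell types at 48 h were as follows. They are to be read beside the shares of all tested probe sets. Those were 9.8% higher and 9.04% lower under the wild-type label, and 6.46% and 6.79% under the mutant label. Of 9 neutrophil markers tested, 4 were higher and 2 lower under the wild-type label and 1 higher and 0 lower under the mutant label. Lcn2, an iron-binding protein of neutrophils and epithelia, rose under both labels, by 3.03 ± 0.28 (wild-type) and 3.96 ± 0.28 (mutant). At 0 h Lcn2 differed by -1.52 ± 0.28 under the mutant label. Of 12 immature neuron markers, 1 was higher and 1 lower, and 2 higher and 0 lower. Of 7 basal-cell markers, 2 were higher and 0 lower, and 0 in either direction. Of 6 ciliated-cell markers, 0 were higher and 1 lower, and 0 higher and 2 lower. Of 5 Bowman gland markers, 1 was higher under the wild-type label, and of 3 red blood cell markers 1 was lower there, with 0 of either list called under the mutant label.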
